A study of Mus musculus with 6 samples.

Results

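The AP-1 and BATF transcription factors of Th2 cells are described here through 10 genes: Jun, Junb and Jund of the Jun family, Fos, Fosb, Fosl1 and Fosl2 of the Fos family, Batf and Batf3 of the BATF family, and Bach2. They were taken by gene symbol from a deposited table of 14868 genes, and all 10 had a row. The libraries are total RNA from naïve CD4+ T cells of wild-type (WT) mice, 3 libraries, and of mice without Ikzf4 (Ikzf4-/-), 3 libraries, both on a C57BL/6J background. Ikzf4 encodes Eos, a zinc finger transcription factor of the Ikaros family. In both groups the cells were kept for 72 h in complete IMDM with 10 ng/mL IL-4 and 10 µg/mL of an antibody against Ifng, which drives T helper 2 (Th2) development. Stimulation through the T cell receptor came from plate-bound anti-CD3 (5 µg/mL), and costimulation from anti-CD28 (2 µg/mL). Age and sex of the mice, the tissue of origin, the design of the Ikzf4 allele and whether each library came from its own mouse are not given in the sources used here. The p-values below therefore measure the spread between these libraries, which may be partly technical.

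AP-1 is a pair of basic leucine zipper (bZIP) proteins, classically a Jun protein with a Fos protein, that binds the sequence TGANTCA and joins T cell receptor signals to gene activity. BATF and BATF3 have a bZIP domain but no activation domain of the Fos kind. They pair with Jun proteins and bind beside IRF4 or IRF8, and BATF is needed for Th2, Th17 and follicular helper cells. BACH2, a bZIP repressor that pairs with small Maf proteins, binds AP-1-like sites too and restrains effector genes in naïve and memory T cells. The comparison asks how the RNA of these factors differs between Th2 cultures with and without Ikzf4.

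Junb and Batf3 fell in Ikzf4-/- cells, and the other 8 genes did not pass the test. Junb, the gene of a Jun protein that is abundant in Th2 cells, fell by 24.9%, and Batf3 fell by 58.1%. Batf, Fosl2 and Bach2 had fitted log2 fold changes (Ikzf4-/- over WT) of -0.79, -0.34 and 0.31, with adjusted p-values of 0.0634, 0.130 and 0.0648. Thus 2 of 10 genes passed at an adjusted p under 0.05 (limma on log2(value + 1), Benjamini-Hochberg over all 14864 genes tested), both lower, beside 1.77% of all genes, 1.20% lower and 0.572% higher. At an unadjusted p under 0.05 the count was 5 of 10, beside 18.1% of all genes. The WT and Ikzf4-/- values did not overlap for 4 of the 10, with 3 lower (Junb, Batf and Batf3) and 1 higher (Bach2), beside 23.1% of all genes, 12.2% lower and 11.0% higher. The median log2 fold change of the 10 genes was -0.08, and that of all genes tested was 0.0048.

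The count of 2 rested on single libraries. Without Ikzf4-/- replicate 1 or without Ikzf4-/- replicate 3, limma called 0 of the 10 at an adjusted p under 0.05, with 5 and 6 at an unadjusted p under 0.05. In the same fits 0.325% and 0.135% of all genes were called. Without WT replicate 2, 1 was called (Bach2), beside 0.508% of all genes, and without Ikzf4-/- replicate 2, 1 was called (Junb), beside 0.757%. Without WT replicate 3, 4 were called (Junb, Fosl2, Batf and Batf3, all lower), beside 3.53%, and without WT replicate 1, 3 were called (Junb, Batf and Batf3), beside 1.82%. With limma array weights, which weight each library by its spread, 3 were called, beside 3.24%, and with the replicate number as a block 4, beside 5.07%. Libraries scaled to equal totals (1.81%), a minimum of 10 in every library (2.00%) and pseudocounts of 0.1 (1.72%) and 10 (1.90%) each gave the same 2 genes. In the authors' deposited table, 4 of the 10 had an adjusted p under 0.05 (Junb, Batf3 and Fosl2 lower, Bach2 higher), beside 6.34% of the 12849 genes with an adjusted p there (3.89% lower and 2.45% higher). The cause of the difference between that table and limma was not tested.

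**Figure D1:**
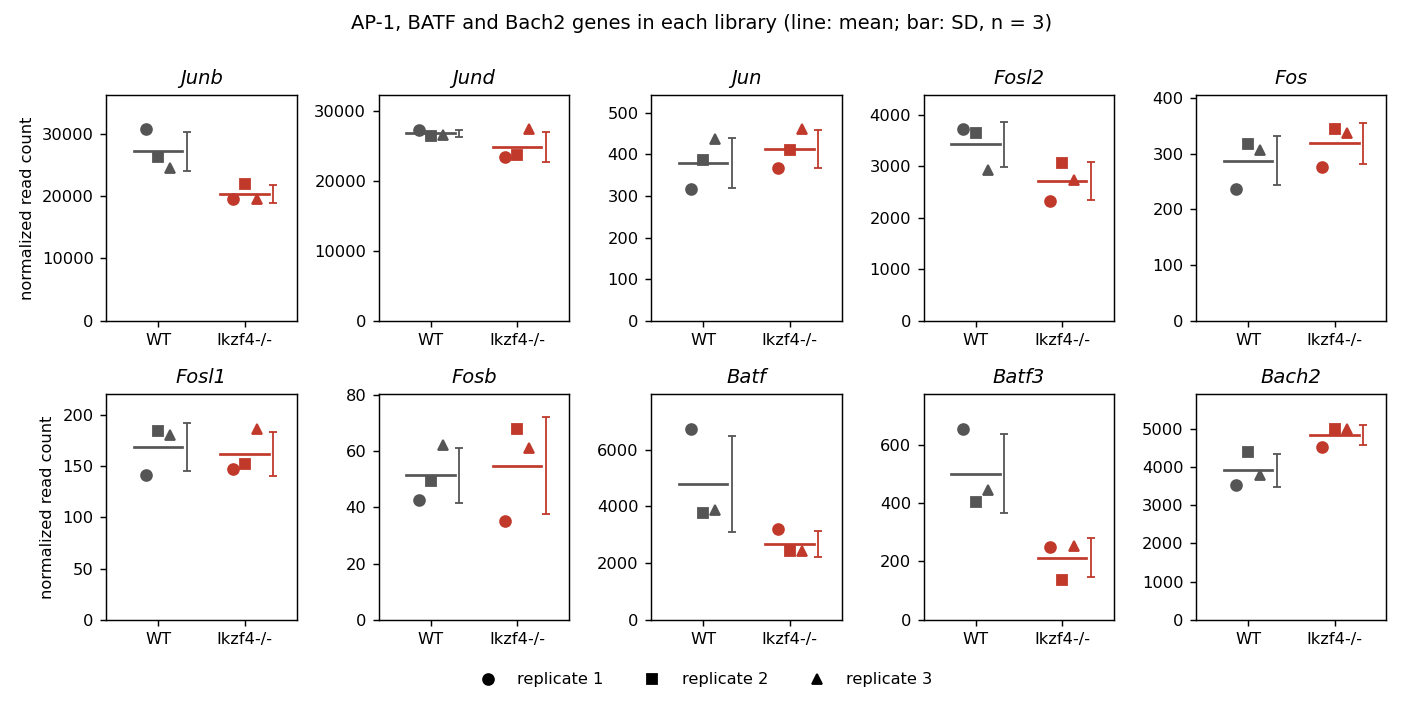
Normalized read count (linear axis from 0, its own scale in each panel) of the 10 genes in each library. Points are libraries, lines are means and bars are the SD of 3 libraries. The groups do not overlap for Junb, Batf, Batf3 and Bach2, and WT replicate 1 is the highest library for Junb, Batf and Batf3.

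The sequences just upstream of Junb, Batf3 and Batf are shown because these 3 genes had every Ikzf4-/- value below every WT value. They are from RefSeq on GRCm38.p6, 5′ to 3′ on the strand of the gene, and stop before any annotated untranslated region. The Batf3 stretch begins inside the first exon of Batf3 transcripts that are annotated without a coding sequence, and the match marked in it lies in that exon. Capitals mark matches that a search of both strands found. In Junb they mark TGACG, the core of the cyclic AMP response element (CRE). In Batf3 they mark TTCNNNGAA, the form of a STAT factor site. In Batf they mark first TTCCCA, which is TGGGAA, the Ikaros core, on the other strand, and then TGACG.
Junb, chr8:84978749-84978998, minus strand: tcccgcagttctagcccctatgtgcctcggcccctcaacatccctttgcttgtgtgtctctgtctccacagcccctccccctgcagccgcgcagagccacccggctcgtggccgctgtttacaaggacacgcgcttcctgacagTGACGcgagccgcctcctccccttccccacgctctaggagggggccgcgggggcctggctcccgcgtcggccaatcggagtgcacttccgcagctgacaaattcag
Batf3, chr1:191098164-191098324, plus strand: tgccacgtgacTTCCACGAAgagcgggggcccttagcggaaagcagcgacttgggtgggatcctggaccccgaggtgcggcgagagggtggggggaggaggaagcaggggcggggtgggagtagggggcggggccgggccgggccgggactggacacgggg
Batf, chr12:85686470-85686668, plus strand: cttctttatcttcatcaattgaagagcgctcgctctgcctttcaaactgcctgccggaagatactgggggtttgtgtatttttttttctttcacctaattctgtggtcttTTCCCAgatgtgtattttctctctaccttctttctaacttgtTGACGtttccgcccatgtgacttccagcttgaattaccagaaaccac
Shorter stretches of the Jun and Fos promoters are shown as well, for the founding genes of both AP-1 families, whose values overlapped between the groups. The capitals mark TGGGAA and then the CRE-like sequence TGACATCA in Jun, and the CRE-like sequence TGACGTAG in Fos. All motifs searched were chosen after the promoters were read.
Jun, chr4:95052253-95052302, minus strand: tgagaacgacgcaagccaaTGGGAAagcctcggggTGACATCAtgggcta
Fos, chr12:85473810-85473859, plus strand: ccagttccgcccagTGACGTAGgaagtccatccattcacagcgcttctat
A RefSeq promoter was found for 9 of the 10 genes, and 8 motifs were searched in the 250 bases before each start. TGACG was in 4 of the 9 (Batf, Junb, Fos and Fosb) and in 17.8% of 32851 promoters of the same length. It also lies inside TGACGTAG and TGACGTCA. TGGGAA was in 3 of the 9 (Batf, Jun and Jund) and in 21.6% of all promoters. TTCNNNGAA was in 2 of the 9 (Batf3 and Bach2) and in 7.02%. TGACATCA was in 1 of the 9 and in 2.93%, and TGACGTAG in 1 of the 9 and in 0.329%. TGANTCA (6.75% of all promoters), TGACGTCA (1.55%) and the STAT6 site (5.85%) were in 0 of the 9, which says only that these letters are not in these windows. The RefSeq starts of Bach2, Jund, Fosl2 and Batf3 lie 178631, 1210, 671 and 567 bases from the outermost start in GENCODE, so their windows are not those of that start.

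Reads per library, estimated from the step in which values occur, ran from 34701390 to 40604346. Ikzf4 itself had 756, 499.6 and 483 normalized reads in WT, against 25.2, 10.5 and 38.2 in Ikzf4-/-, so every library matched its label. Over all genes, 178 were lower and 85 higher at an adjusted p under 0.05, against 154 and 115 when libraries were scaled to equal totals. In the WT libraries all 6 CD4 T cell markers (Cd3d, Cd3e, Cd3g, Cd4, Cd5 and Thy1) had rows, with a summed normalized read count of 81822 to 83288, and in the Ikzf4-/- libraries of 79847 to 83736. Markers of other cells were low. Both CD8 T cell markers had rows (summed 236 to 423 in WT and 232 to 374 in Ikzf4-/-), as did the B cell markers Cd79a and Cd79b (51.1 to 83.6 and 58.6 to 90.4), 2 of 8 myeloid and dendritic cell markers (79.8 to 104 and 103 to 131) and 1 of 4 NK cell markers (149 to 299 and 165 to 284). The myeloid genes Lyz2, Csf1r and Itgam, the dendritic cell genes Xcr1, Clec9a and Flt3, and Ms4a1, Cd22, Pax5, Ncr1, Klrb1c and Klre1 had no row in the table and were not analysed here. Of the 8 myeloid and dendritic cell markers, Itgax and Zbtb46 were the 2 with rows. Batf3 is best known for the dendritic cells that carry Xcr1 and Clec9a. The part of other cells in the results was not tested. In these bulk libraries fewer cells of a type and less RNA per cell cannot be told apart.

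Among the Jun genes, Junb (ENSMUSG00000052837, GRCm38 chromosome 8, 84974484 to 84978718, minus strand) was at 30663, 26307 and 24526 normalized reads in WT replicates 1 to 3. In Ikzf4-/- replicates 1 to 3 it was at 19553, 22000 and 19476. Every Ikzf4-/- library lay below every WT library, with WT replicate 1 the highest. The mean was 27165 ± 3157 (SD, n = 3) in WT and 20343 ± 1435 (SD, n = 3) in Ikzf4-/-, or -0.41 as fitted log2 difference (SE 0.08, 95% interval -0.59 to -0.24, limma adjusted p = 0.0319). Without each library in turn the log2 fold change ran from -0.48 to -0.32, and Junb was called in 3 of the 6 fits. Its adjusted p was 0.0653 without WT replicate 2, 0.0974 without Ikzf4-/- replicate 1 and 0.126 without Ikzf4-/- replicate 3. The 3′ end of Junb overlaps that of Prdx2, on the other strand, over 351 bases, and whether reads were counted by strand is not given in the sources used here. Prdx2 differed by -0.01 on the log2 scale (limma adjusted p = 0.947).

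Jund, the Jun gene that is made steadily in resting cells (ENSMUSG00000071076), was at 27360, 26518 and 26679 in WT and at 23470, 23821 and 27418 in Ikzf4-/-. The groups overlapped, since Ikzf4-/- replicate 3 was the highest of the 6 libraries. Its log2 fold change was -0.11 (95% interval -0.24 to 0.02, limma adjusted p = 0.348). Jun, which encodes c-Jun (ENSMUSG00000052684), was far less abundant, at 316, 386 and 437 in WT and 368, 411 and 460 in Ikzf4-/-. Its groups overlapped as well, and its log2 fold change was 0.13 (95% interval -0.17 to 0.42, limma adjusted p = 0.671). The interval for Jun spans 0, so no direction is given.

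Among the Fos genes, Fosl2, which encodes Fra-2 (ENSMUSG00000029135, chromosome 5), was at 3711, 3643 and 2926 in WT and at 2324, 3062 and 2740 in Ikzf4-/-. The groups overlapped by 1 library on each side, WT replicate 3 and Ikzf4-/- replicate 2. The mean was 3427 ± 435 (SD, n = 3) in WT and 2709 ± 370 (SD, n = 3) in Ikzf4-/-, a log2 difference of -0.34 (SE 0.11, 95% interval -0.58 to -0.10, limma adjusted p = 0.130). Of the 6 fits that left out a library, 1 called it, that without WT replicate 3 (limma adjusted p = 0.0355), and in the authors' deposited table (adjusted p = 0.0171).

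Fos, the classical immediate early gene (ENSMUSG00000021250, chromosome 12), was at 237, 318 and 307 in WT and at 276, 343 and 337 in Ikzf4-/-. Its groups overlapped, with a log2 fold change of 0.15 (95% interval -0.16 to 0.47, limma adjusted p = 0.618). Fosl1, which encodes Fra-1 (ENSMUSG00000024912), was at 142, 184 and 181 in WT and 147, 152 and 187 in Ikzf4-/-. Its log2 fold change was -0.06 (limma adjusted p = 0.896), and the sign changed when single libraries were left out. The gene lies across Ccdc85b on the other strand, with 2767 shared bases, so reads of the pair may not be told apart. Fosb (ENSMUSG00000003545) had the fewest reads of the 10 genes, with 42.6, 49.4 and 62.1 in WT and 35.3, 68.0 and 61.3 in Ikzf4-/-. Its log2 fold change was 0.06 with a wide 95% interval of -0.58 to 0.70 (limma adjusted p = 0.944), and its sign too changed with single libraries. Fosb and Fosl1 give no direction at this depth and spread.

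Batf (ENSMUSG00000034266, chromosome 12, 85686669 to 85709087, plus strand) was at 6744, 3772 and 3875 in WT and at 3220, 2415 and 2426 in Ikzf4-/-. The groups did not overlap, but WT replicate 1 stood far above the other WT libraries. The mean was 4797 ± 1687 (SD, n = 3) in WT and 2687 ± 462 (SD, n = 3) in Ikzf4-/-, a log2 difference of -0.79 (SE 0.19, 95% interval -1.22 to -0.37, limma adjusted p = 0.0634). Without WT replicate 1 the log2 fold change was -0.52 and its adjusted p was 0.0203. Across the fits without 1 library the log2 fold change ran from -0.94 to -0.52 and the adjusted p from 0.0203 to 0.210, with a call in 2 of the 6. The adjusted p in the authors' deposited table was 0.111. Array weights in limma gave an adjusted p of 0.0385, and limma with the replicate number as a block gave 0.00128.

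Batf3 (ENSMUSG00000026630, chromosome 1, 191097847 to 191108945, plus strand) was at 656, 403 and 445 in WT and at 249, 136 and 254 in Ikzf4-/-. Each Ikzf4-/- library lay below each WT library, with Ikzf4-/- replicate 2 the lowest. The mean was 502 ± 135 (SD, n = 3) in WT and 213 ± 66.8 (SD, n = 3) in Ikzf4-/-, 2.38-fold lower on the fitted scale (log2 fold change -1.25, SE 0.24, 95% interval -1.79 to -0.72, limma adjusted p = 0.0342). This was the largest fitted change of the 10 genes. Batf3 was called in 2 of the 6 fits without 1 library, those that left out WT replicate 1 or 3. Leaving out WT replicate 2 gave an adjusted p of 0.0615, and leaving out Ikzf4-/- replicates 1, 2 and 3 gave 0.0650, 0.0612 and 0.0869. The log2 fold change in these fits ran from -1.41 to -0.96.

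Bach2 (ENSMUSG00000040270, chromosome 4, plus strand) had values in the opposite order. It was at 3543, 4401 and 3803 in WT and at 4541, 5009 and 4993 in Ikzf4-/-, so every Ikzf4-/- library lay above every WT library, the nearest pair being WT replicate 2 and Ikzf4-/- replicate 1. The mean was 3916 ± 440.0 (SD, n = 3) in WT and 4848 ± 266 (SD, n = 3) in Ikzf4-/-, a log2 difference of 0.31 (SE 0.08, 95% interval 0.15 to 0.48, limma adjusted p = 0.0648). It was called without WT replicate 2 (limma adjusted p = 0.0391) and in the authors' deposited table (adjusted p = 0.00422). Limma with the replicate number as a block called it as well (adjusted p = 0.0127). Across the fits without 1 library its adjusted p ran from 0.0391 to 0.209. The ratio of Batf to Bach2 per kilobase of exon was 13.5, 6.06 and 7.20 in WT and 5.01, 3.41 and 3.44 in Ikzf4-/-. Every Ikzf4-/- ratio was below every WT ratio. This ratio was chosen after its parts were seen and was given no test. Of the transcripts that overlap Bach2, the intronic Bach2it1 differed by 1.01 on the log2 scale and the antisense Bach2os by 0.51 (limma adjusted p = 0.357), and neither passed.

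**Figure D2:**
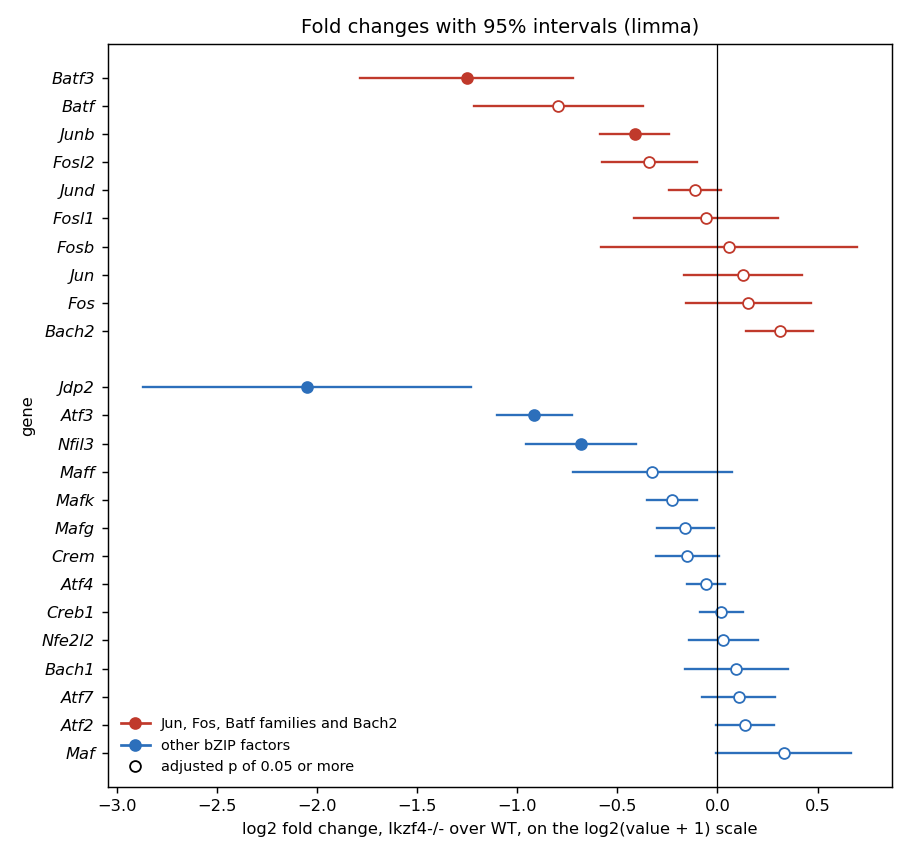
Fitted log2 fold change (Ikzf4-/- over WT, horizontal axis) with its 95% interval from limma for the 10 genes (red) and 14 other bZIP genes (blue), each set ordered by value. Filled points passed at an adjusted p under 0.05: Junb and Batf3 in red, and Jdp2, Atf3 and Nfil3 in blue, all of them lower in Ikzf4-/-.

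**Figure D3:**
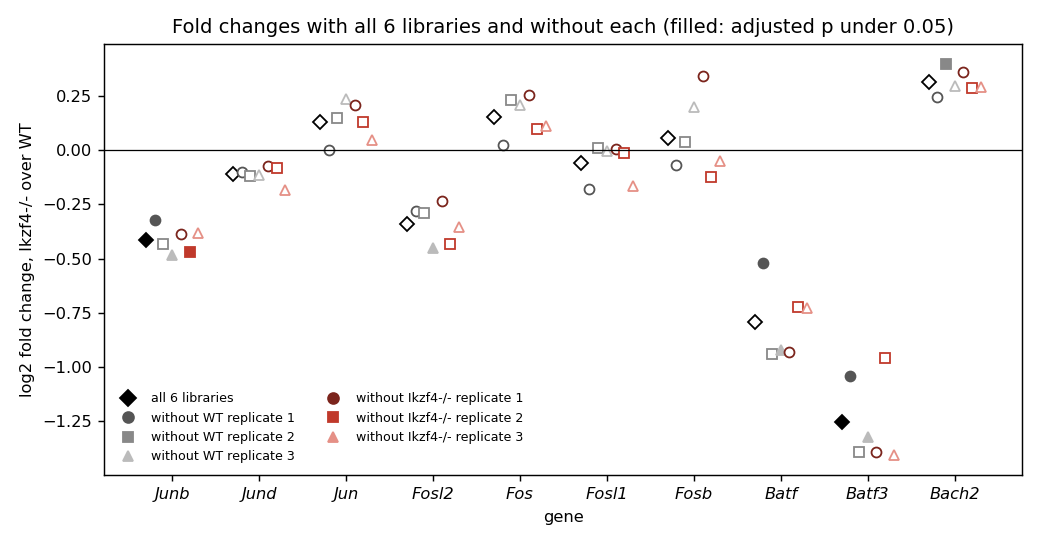
Log2 fold change (vertical axis) of each of the 10 genes with all 6 libraries (diamond) and without each library in turn. Filled symbols are called at an adjusted p under 0.05. Junb, Batf, Batf3, Fosl2, Jund, Jun, Fos and Bach2 keep their sign in the 6 fits, while Fosb and Fosl1 do not.

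Levels of different genes were compared as normalized reads per kilobase of merged exon. In WT the order was Jund (16098 ± 268), Junb (11806 ± 1372), Batf (3412 ± 1200), Bach2 (394 ± 44.3), Fosl2 (354 ± 44.9), Batf3 (314 ± 84.7), Fos (122 ± 18.6), Jun (119 ± 19.0), Fosl1 (83.0 ± 11.6) and Fosb (8.23 ± 1.59), each as mean and SD of 3 libraries. The ranges of Bach2, Fosl2 and Batf3 overlapped in WT, as did those of Fos and Jun, so these neighbours did not differ beyond their spread. In Ikzf4-/- the order was the same down to Fosl2. Batf3 (133 ± 41.8) then lay below Fos (136 ± 15.7), though their ranges overlapped, and Bach2 (488 ± 26.8) lay clear of Fosl2 (280 ± 38.2). The 3 Jun genes made up 83.0% to 87.3% of the summed per-kilobase level of the 10 genes in WT libraries and 87.2% to 89.6% in Ikzf4-/- libraries. The 2 BATF genes made up 9.34% to 14.5% in WT and 6.72% to 9.40% in Ikzf4-/-, and the 4 Fos genes 1.56% to 1.94% and 1.67% to 2.04%. The Fos share was below the BATF share in every library. Within the Jun family, the Junb share was 44.7%, 41.6% and 39.8% in WT and 37.5%, 39.9% and 33.8% in Ikzf4-/-, where the groups overlapped. Within the BATF pair, the Batf3 share was 7.89%, 8.61% and 9.19% in WT and 6.38%, 4.73% and 8.44% in Ikzf4-/-, again with overlap. The exon length counts all annotated isoforms, so a gene that uses short isoforms is underestimated.

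**Figure D4:**
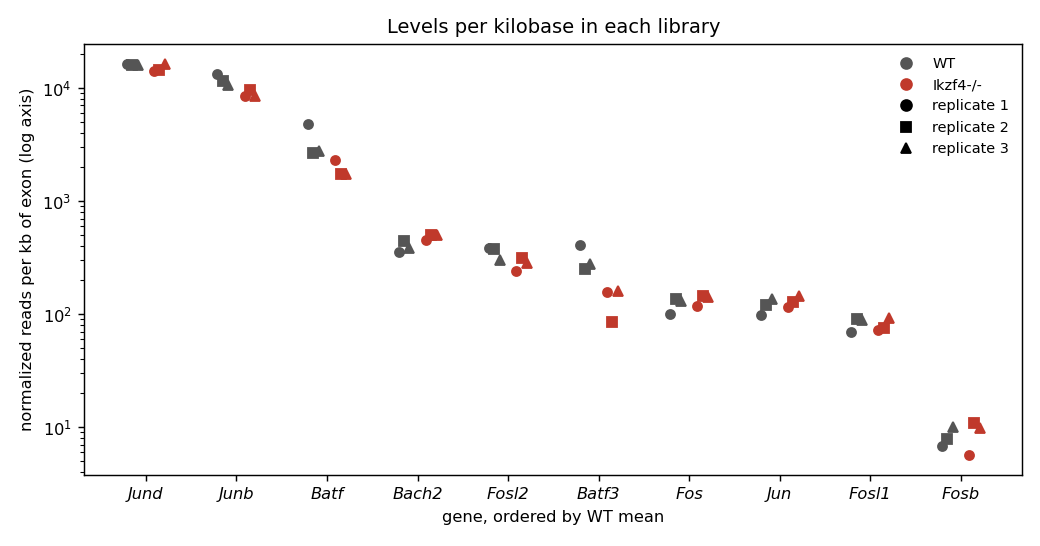
Normalized reads per kilobase of merged exon (log axis) of the 10 genes in each library, in the order of the WT mean. Jund, Junb and Batf lie above the other genes in every library, and Fosb lies lowest.

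Position in the genome brought in 2 other bZIP genes. Their place was noticed after their values were seen, and the neighbours are given as a description. On chromosome 12, Fos and Batf start 212779 bases apart, and Jdp2 lies between them, ending 46791 bases before Batf. Jdp2 encodes Jun dimerization protein 2, a bZIP repressor that pairs with Jun proteins. Jdp2 was at 92.6, 45.8 and 45.6 in WT and at 9.08, 16.8 and 15.1 in Ikzf4-/-, with no overlap, and the fitted log2 difference was -2.05 (SE 0.37, limma adjusted p = 0.0291). The outer neighbours Tmed10 (log2 fold change -0.04, limma adjusted p = 0.781) and Flvcr2 (-0.82, with a WT mean of 17.3) did not pass. The difference between Jdp2 and its neighbour Fos was not tested.

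On chromosome 1, Atf3 lies beside Batf3, on the other strand, with its 3′ end 61351 bases after that of Batf3. Atf3 encodes a stress-induced bZIP factor that pairs with Jun proteins and is often a repressor. It was at 1713, 1720 and 1660 in WT and at 795, 1014 and 904 in Ikzf4-/-. The WT libraries agreed closely, and all Ikzf4-/- libraries were lower. On the log2 scale the difference was -0.91 (SE 0.08, limma adjusted p = 0.00102), and Atf3 was called in each of the 6 fits without 1 library. Nsl1, upstream of Batf3, differed by -0.01 on the log2 scale (limma adjusted p = 0.969). The antisense gene Gm38188, within Nsl1, had -0.56 (0.333), and D730003I15Rik, beyond Atf3, -0.07 (0.938).

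**Figure D5:**
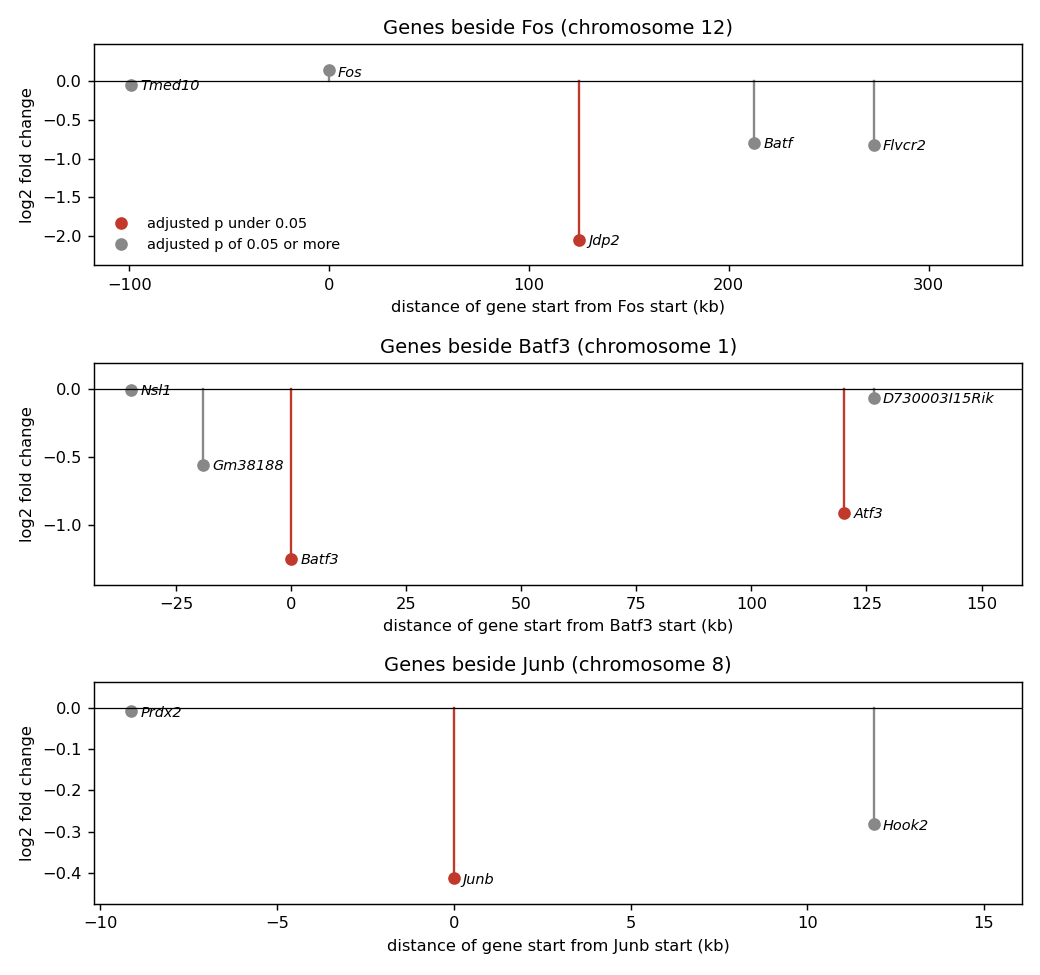
Log2 fold change (vertical axis) of genes in the table beside Fos, Batf3 and Junb against the distance of their starts in kb (horizontal axis). Red points passed at an adjusted p under 0.05: Jdp2 between Fos and Batf, Batf3 and its neighbour Atf3, and Junb, whose neighbours Prdx2 and Hook2 did not pass.

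Of 14 other bZIP factors with a row, 3 passed, all lower (Atf3, Jdp2 and Nfil3), beside 1.77% of all genes called and 1.20% lower, and the median log2 fold change was -0.10. Nfil3, the gene of a bZIP repressor known from type 2 and NK cell biology, was at 5378, 3971 and 3545 in WT and at 2533, 2870 and 2526 in Ikzf4-/- (log2 fold change -0.68, limma adjusted p = 0.0292). The groups did not overlap. Nfil3 and Jdp2 were each called in 2 of the 6 fits without 1 library, those without WT replicate 1 or WT replicate 3. Their adjusted p-values in the other 4 reached 0.114 and 0.0933, both without Ikzf4-/- replicate 3. Maf, which encodes the activator c-Maf of the Il4 promoter, had 0.33 (limma adjusted p = 0.290), with every Ikzf4-/- value above every WT value. The groups did not overlap for 6 of the 14, with 5 lower and 1 higher (Maf). The shares of all genes were 23.1%, 12.2% lower and 11.0% higher. Bach1, the relative of Bach2, had 0.09 (0.729). Batf2 had no row.

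The DNA-binding partners of composite sites gave 0 of 5 called by limma, with 2 at an unadjusted p under 0.05 and 2 in the authors' deposited table. In each of these counts of 2, 1 gene was lower and 1 higher. The shares of all genes, in either direction, were 1.77%, 18.1% and 6.34%. Irf4, the partner of BATF in T cells, was at 29553, 25744 and 24480 in WT and at 22117, 21896 and 22129 in Ikzf4-/-. The groups did not overlap, and the log2 fold change was -0.27 (limma adjusted p = 0.0612). Irf4 was called only in the fit without WT replicate 3 among the 6 without 1 library (limma adjusted p = 0.0224). Its adjusted p in the authors' deposited table was 0.00219. Irf8 had a log2 fold change of 0.19 (0.772), with overlap.

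Upstream of AP-1, 1 of 14 genes of the mitogen-activated protein kinase cascade passed, beside 1.77% of all genes. Mapk3, which encodes the kinase ERK1, was at 1706, 1578 and 1613 in WT and at 1101, 1302 and 1125 in Ikzf4-/- (log2 fold change -0.48, limma adjusted p = 0.0198). All 3 Ikzf4-/- libraries were lower than the lowest WT library. Mapk3 was called in 4 of the 6 fits without 1 library, and leaving out Ikzf4-/- replicate 1 or 3 gave adjusted p-values of 0.0630 and 0.0875. Among the phosphatases that switch these kinases off, limma called 0 of 10, with 2 at an unadjusted p under 0.05 and 0 in the authors' deposited table, and Dusp1 had a log2 fold change of 0.07. For serum response factor and its partners at the Fos promoter the count was 0 of 6. An unadjusted p under 0.05 was seen for 2, both higher, and the authors' deposited table called 1, also higher. Srf, at -0.05, was the 1 gene of the 6 with a negative log2 fold change. For factors of Jun and Fos protein or RNA turnover the count was 0 of 8. Among the 8, 2 had an unadjusted p under 0.05, both lower, and 1, also lower, was called in the authors' deposited table. Over all genes and in either direction, 18.1% had an unadjusted p under 0.05 and 6.34% were called in that table. Itch, the ubiquitin ligase of JunB and c-Jun, stood at a log2 difference of 0.06 (limma adjusted p = 0.579).

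Downstream, 3 of 10 effector genes known to be bound or driven by AP-1 or BATF passed, all lower, beside 1.77% of all genes called and 1.20% lower. They were Il4, Il10 and Il13, with log2 fold changes of -0.87, -1.48 and -0.82 (limma adjusted p = 0.0144, 0.0157 and 0.0450). Scaling the libraries to equal totals ended the call of Il13 (limma adjusted p = 0.0503). Il5, at -1.24, did not pass (0.0529), though its adjusted p in the authors' deposited table was 0.00209. Il2, the T cell growth factor, named after its values were seen, lay the other way at 1189, 2040 and 2798 in WT and 3418, 3818 and 3706 in Ikzf4-/-. Its groups did not overlap, and at a log2 difference of 0.94 it did not pass either (limma adjusted p = 0.0621). At an unadjusted p under 0.05, 5 of these 10 genes were lower and 1 was higher, beside 18.1% of all genes in either direction. Of 6 genes that BACH2 is known to hold down, 2 passed (1.77% of all genes), and these were again Il4 and Il13. At an unadjusted p under 0.05, 5 of the 6 were lower, beside 18.1% of all genes in either direction. The authors' deposited table called 5 of them, beside 6.34%. Prdm1, which encodes the repressor Blimp-1, had a log2 fold change of -1.12 (0.0588), and Gata3 of -0.24 (0.146). Their adjusted p-values in the authors' deposited table were 0.0102 and 0.0386. Of 9 genes of naïve and memory T cells, limma called 0, with 6 at an unadjusted p under 0.05 and 3 in the authors' deposited table (18.1% and 6.34% of all genes), and Tcf7 had 0.06 (0.690). Among 12 other immediate early genes, Nr4a2, which encodes an orphan nuclear receptor, was higher (log2 fold change 0.56, limma adjusted p = 0.0474) and Myc lower (-0.42, 0.0490). These 2 calls stand beside 1.77% of all genes. At an unadjusted p under 0.05, 5 of the 12 were higher and 3 lower, beside 18.1% of all genes in either direction. The groups did not overlap for 7 of the 12, beside 23.1%. The authors' deposited table called 4 of the 12, beside 6.34%. Myc was not called with equal totals (limma adjusted p = 0.0518) or a pseudocount of 0.1 (0.0515). Egr1 did not pass, at 0.28 (0.0556), though its adjusted p in the authors' deposited table was 0.00260. Of the 6 fits without 1 library, Nr4a2 and Myc were called in 2 (without WT replicate 1 or 3), Il13 in 1 (without WT replicate 1), Il10 in 4 (not without Ikzf4-/- replicate 1 or 3) and Il4 in 5 (not without Ikzf4-/- replicate 3, adjusted p 0.0571). Over the 10 lists outside the 10 genes, 9 of 91 distinct genes were called, 8 lower and 1 higher, beside 1.77% of all genes, 1.20% lower and 0.572% higher. Of the CD4 T cell markers, Cd5 was higher (log2 fold change 0.33, limma adjusted p = 0.0306) and was called in 3 of the 6 fits. Thy1 and Cd3g, named after their values were seen, were at -0.37 (limma adjusted p = 0.0675) and -0.16 (0.130), with every Ikzf4-/- value below every WT value. Their adjusted p-values in the authors' deposited table were 0.000979 and 0.0789.

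For the genes that passed, the 3 genes with the most similar pattern over the 6 libraries were found among 11592 others with a mean of at least 50. Likeness was the mean absolute difference between log2(value + 1) values, each centred on its own mean. For Batf3 they were Nav1 (difference 0.11), Adap1 (0.12) and Gm17590 (0.17). For Junb they were Blvrb, the gene of biliverdin reductase B (0.028), Cdkn2d, which encodes a cyclin-dependent kinase inhibitor (0.030), and Pkm, the gene of the glycolytic enzyme pyruvate kinase (0.031). Cdkn2d was at 3998, 3598 and 3423 in WT and 2643, 2944 and 2724 in Ikzf4-/-, which follows the order of Junb in WT. Such genes share the group difference of the gene they were matched to, so no test applies.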

How the data were processed

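The deposited table held, for each gene, a normalized read count in each of the 6 libraries, a signal that the authors had already scaled. Trimmomatic 0.36, STAR 2.5.2b and DESeq2 and the build GRCm38 (mm10) are named per the submitters' processing notes, without roles. The counting tool, annotation and use of strand are not given in the sources used here. All low values were whole multiples of 1 step per library within 0.1 of a step, so depth was estimated from the steps. For Ikzf4-/- replicates 1 and 3 the step was near 1 (1.009 and 1.005). Whole reads were therefore not accepted as recovered for these libraries, and no count test was run. The deposited table also gave the authors' own log2 fold changes and their p-values, raw and adjusted, which are quoted as theirs.

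Genes whose mean was 10 or more were kept, values were taken as log2(value + 1), and genotype was fitted with limma 3.58.1 (trend on mean, R 4.3.3) on all 6 libraries, with two-sided p-values adjusted by Benjamini-Hochberg over 14864 genes. Fold changes of low genes are understated by the pseudocount. The fit was tested on simulated data. Positions and merged exon lengths are from GENCODE M21 and promoters from RefSeq (GRCm38.p6). The genes, lists and tests were chosen with earlier results of these data known. Genes named were the 10, Ikzf4, list genes that passed and 16 set by name whatever their values in the design, the 3 most alike genes, and neighbours chosen after their values were seen. Alternatives were quantile scaling, equal totals, other filters and pseudocounts (0.1 and 10), a replicate block, array weights, each library left out and the authors' calls.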

Additional observations from a re-analysis of the deposited data

How the results depend on the processing

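Quantile scaling, equal totals, dropping the filter, asking for 10 in each library and pseudocounts of 0.1 and 10 each called 2 of the 10 genes, Junb and Batf3. Array weights called 3 of the 10, 482 genes in all and 19 genes on the other lists. With the replicate number as a block, 4 of the 10 were called (Batf, Batf3 and Junb lower, Bach2 higher), 754 genes in all and 26 list genes. Deviations of same-numbered libraries correlated at 0.145, 0.0122 and 0.142 across genes. Those of different numbers ran from -0.163 to 0.0491, and WT replicate 2 correlated best with Ikzf4-/- replicate 3 (0.0491). These values cannot settle whether equal numbers mark paired libraries, and the main fit used no pairing. The authors' deposited table gave 4, 815 and 22. Leaving out each library gave 0 to 4 of the 10, 20 to 523 genes in all and 1 to 18 list genes. These fits have 5 libraries, and the cause of the rises was not tested. Of 150 single values of the 10 genes under alternatives, 129 kept their direction and their side of the threshold, 7 lost a call, 9 gained one and 5 changed sign. Those were Fosb at -0.07, -0.12 and -0.05 without WT replicate 1, Ikzf4-/- replicate 2 and Ikzf4-/- replicate 3, and Fosl1 at 0.011 and 0.0070 without WT replicate 2 and Ikzf4-/- replicate 1, with no call in any of them. Across the 6 fits Fosb ran from -0.12 to 0.34 and Fosl1 from -0.18 to 0.011. Equal totals ended the calls of Il13 and Myc, at log2 differences of -0.79 and -0.40. Jdp2 had no value when 10 was asked of each library. Of the 10 genes, Fosb has the fewest reads and the widest interval.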
